A study of Mus musculus with 6 samples.

Results

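The transcriptome described here is that of 4T1 cells cultured with vehicle alone, taken from 3 RNA-seq libraries, Vehicle replicates 1, 2 and 3. 4T1 is an established line of mouse mammary carcinoma cells. A gene was counted as present when its mean level over the 3 libraries was at least 1 FPKM, FPKM being the fragments per kilobase of exon, scaled to a library of fixed size. Of 56691 genes in the table, 10133 met this rule (17.9%), and they held 99.3% of the fragments. Among genes of the protein-coding type the rule took 9148 of 21871 (41.8%), which is the share to set beside the gene lists given here. Among the genes nearest the limit, Aldh3b1, Cutc and Fgfr3 on the inside had a mean of 1.00 FPKM, and Rmi2, Txlng and Zfp867 on the outside had 0.997 FPKM. At this limit Fgfr3, a receptor tyrosine kinase for fibroblast growth factors, rested on 127 fragments per library.

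The study set these 3 libraries against 3 from cells given KIRA6 at 1 μmol/L, a kinase inhibitor directed at the endoplasmic reticulum stress sensor IRE1α, and its title concerns myeloid-derived suppressor cells and anti-PD-1 therapy. Cells were plated overnight in complete RPMI medium, which was replaced by fresh medium with vehicle 4 h before RNA was taken with TRIzol. All 6 libraries share the line, the medium change and the 4 h, so the cells described had vehicle and fresh medium rather than no handling. The sources used here do not give the composition of the vehicle. The labels give no transgene, clone or passage. Nothing in them tells separate cultures from repeat preparations of one, so the spread between libraries may be technical.

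4T1 cells were derived from a mammary tumour that arose spontaneously in a BALB/c-background mouse, and they are used because they spread from the mammary fat pad to lung, liver, bone and brain and raise granulocyte counts in the host. Mammary epithelium has an inner luminal layer, which makes keratins 8 and 18 and includes cells that sense oestrogen and progesterone, and an outer basal layer, which makes keratins 5 and 14 and contracts to eject milk. Carcinoma cells can keep epithelial junctions and also express genes of mesenchymal cells, such as vimentin and fibronectin. Growth factors, cytokines, proteases and matrix proteins made by such cells act on the host cells around them, and a culture of one line measures only what the tumour cells themselves transcribe.

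By the recovered depths, 18203950, 16498725 and 18583525 fragments fell in genes, with 16474 to 16843 genes above 0 per library. Vehicle replicate 3 stood apart from the other libraries of its group. Across the genes present, the median absolute difference was 0.11 on the log2(FPKM + 0.5) scale between replicates 1 and 2, and 0.41 between replicate 3 and the mean of those libraries. Replicate 3 was at least 2-fold above both others for 817 genes (8.06%) and at least 2-fold below both for 60 (0.592%), again after adding 0.5 FPKM. The same counts were 9 and 7 for replicate 1, and 10 and 13 for replicate 2. Without replicate 3, 9835 of the genes stayed at 1 FPKM or more, 298 fell below and 124 others came in, giving 9959. For this reason values are given for each library, always in the order replicate 1, 2 and 3, and list counts that change without replicate 3 carry both values.

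Transcript length and base composition moved with that difference. Replicate 3 minus the mean of the others had a median of -0.34 (log2) in the shortest eighth of the genes, up to 1399 bases of exon, and 0.27 in the longest eighth, from 8665 bases. By GC content of the longest transcript the median went from -0.36 in the eighth poorest in GC, up to 42.3%, to 0.56 in the richest, from 57.04%. Among the 293 genes in both the longest 25% and the GC-richest 25%, the median was 1.198 and 52.2% were 2-fold above both other libraries. Replicate 2 minus replicate 1 ran the same way over the GC bins with a smaller range, from -0.08 to 0.18. The part of length, GC content or handling in the difference was not tested.

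**Figure D1:**
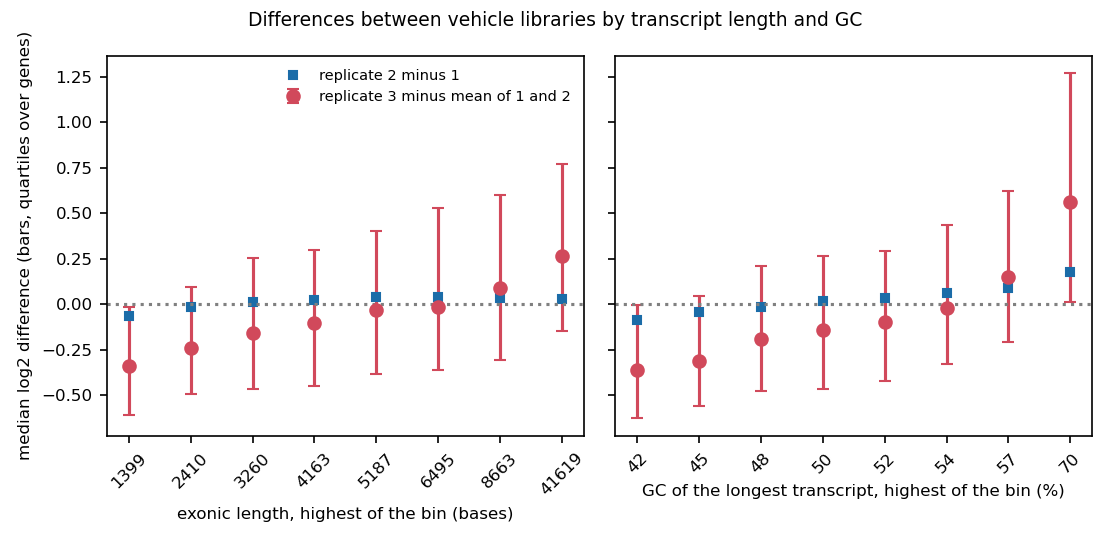
Median log2(FPKM + 0.5) difference between vehicle libraries over genes of at least 1 FPKM, in 8 equal bins of exonic length (left, bases) and of GC content (right, %), labelled by the highest value of each bin. Red points are replicate 3 minus the mean of replicates 1 and 2 with the quartiles over genes as bars, and rise from -0.34 to 0.27 with length; blue squares are replicate 2 minus replicate 1.

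Levels covered 4 orders of magnitude. The median gene present stood at 7.47 FPKM, with quartiles of 3.097 and 20.01 FPKM. Between 1 and 10 FPKM there were 5895 genes with 13.3% of the fragments, and between 10 and 100 FPKM 3715 genes with 39.8%. A further 479 genes lay between 100 and 1000 FPKM with 28.4% of the fragments. Only 44 genes reached 1000 FPKM, and these took 17.7 ± 1.02% (SD, n = 3). The 10 genes with most fragments took 10.6 ± 0.358% of the fragments, and the 10 of highest level took 17.3 ± 0.524% of the summed FPKM.

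**Figure D2:**
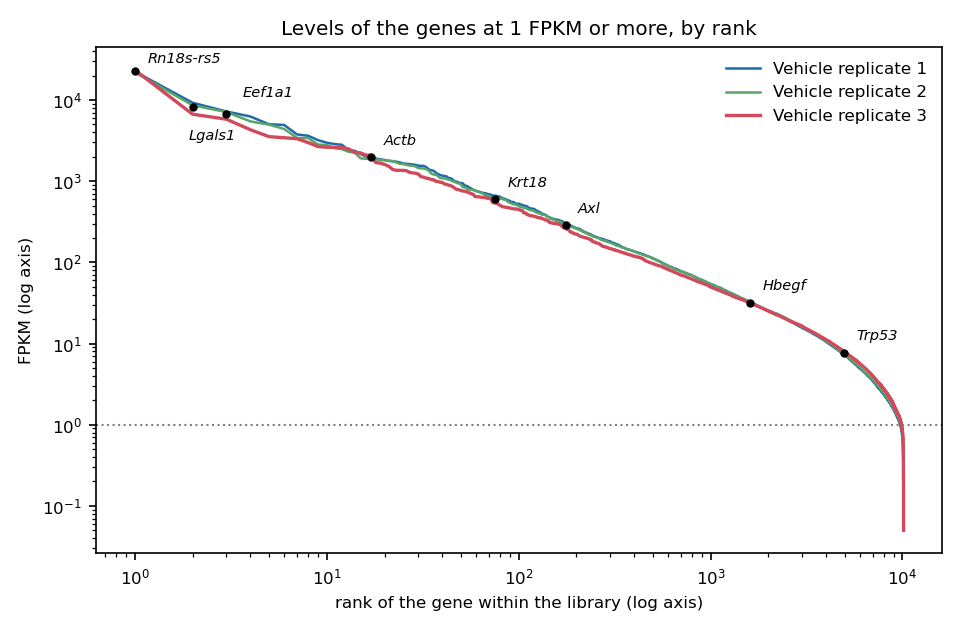
FPKM (log axis) of the genes at 1 FPKM or more against their rank within each vehicle library (log axis), with values under 0.05 drawn at 0.05 and the dotted line at 1 FPKM. Black points mark the mean level and rank of 8 genes, from Rn18s-rs5 at 22621 FPKM to Trp53 at 7.67 FPKM, and the 3 curves nearly coincide below rank 1000.

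The highest value was that of Rn18s-rs5, a gene annotated as related to 18S ribosomal RNA, at 22446, 21993 and 23423 FPKM, although polyadenylated RNA had been selected. Among protein-coding genes Lgals1, which encodes the secreted lectin galectin-1, came first at 9259, 8605 and 6687 FPKM. It lies at chr15:78810925-78814665 of GRCm39, and replicate 3 was the lowest library. Eef1a1, the elongation factor that brings aminoacyl-tRNA to the ribosome, followed at 7227, 7119 and 5802 FPKM, and mt-Co1, a mitochondrially encoded subunit of cytochrome c oxidase, at 6260.0, 5456 and 4307 FPKM. Of the 20 protein-coding genes of highest mean, 9 encode cytosolic ribosomal proteins, led by Rplp1 (3765, 3407 and 2988 FPKM) and Rps15 (3629, 3399 and 2671 FPKM). Hsp90ab1, a cytosolic chaperone, was at 1609, 1819 and 2609 FPKM, and the cytoplasmic actins Actb and Actg1 at 1756, 1867 and 2258 and at 1655, 1789.5 and 2099.7 FPKM. Ftl1, the light chain of the iron store ferritin, stood at 1831, 1873 and 2089.7 FPKM, and Ptma, a small acidic nuclear protein, at 1776, 1625 and 1363 FPKM. Leaving out replicate 3 kept 19 of these 20 genes, and 96 of the highest 100.

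Taken as shares of fragments, the 85 genes for ribosomal proteins held 11.04%, 10.3% and 7.85% in the 3 libraries, with 82 of them present. Translation initiation and elongation factors held 4.56%, 4.58% and 4.096%, and the mitochondrially encoded genes 1.98%, 1.71% and 1.9%. The HSP90 and HSP70 families held 1.48%, 1.49% and 1.52%, and the cytoplasmic actins 0.9103%, 0.976% and 1.16%. Proteasome subunits, which degrade tagged proteins, held 0.924%, 0.903% and 0.648%, with 38 of 40 genes present. Ribosomal protein, translation factor and proteasome shares were lowest in replicate 3, and the actin share was highest there. The median log2 difference of replicate 3 from the others was -0.39 for the ribosomal protein genes present, near the -0.34 of the shortest eighth of all genes present. The part of transcript length in these shares was not tested.

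Values of genes with near-identical copies are uncertain, because reads from one copy can be assigned to another or dropped. Pseudogenes made up 672 of the genes present, 63 of them at 100 FPKM or more, and 2.56% to 3.32% of the fragments per library. The pseudogene Rps2-ps10 was listed at 5032, 4969 and 3541 FPKM, while its parent Rps2, a protein of the small ribosomal subunit, was listed at 171, 174 and 118 FPKM. Gapdh, the glycolytic enzyme often used as a reference gene, has many processed copies and was listed at only 21.4, 21 and 22.2 FPKM. Its neighbours in the pathway, Tpi1 and Pgk1, were at 381, 385 and 343 and at 603, 618 and 297 FPKM, so the Gapdh value is not used as a level here. The mitochondrial genes mt-Co2 (26.1, 23.7 and 24.3 FPKM) and mt-Atp6 (10.4, 14.5 and 8.85 FPKM) were listed far under mt-Co1, which is encoded on the same molecule. These genes were picked out after their values were seen.

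Genes present were spread over all chromosomes. Their share among protein-coding genes was highest among autosomes on chromosome 12, at 51.3%, and lowest on chromosome 7, at 32.6%. The X chromosome had 255 of 929 (27.4%). Xist, the RNA that coats an inactive X chromosome, was listed at 0 in all 3 libraries, where 3 fragments would give 0.0101 FPKM. None of the 4 Y-linked genes Ddx3y, Uty, Kdm5d and Eif2s3y was above 0.03 FPKM in any library, and 1 of 175 Y-linked protein-coding genes was present.

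The promoters of the genes present differed in base composition from those of the other genes. RefSeq windows of 300 bases (GRCm38.p6, from 250 bases before the start to 50 after) matched 16730 protein-coding genes by symbol, 7405 of them present. For each symbol only the first window listed without unknown bases was used. The ratio of CpG dinucleotides to the number that the C and G content would give had a median of 0.805 for genes present and 0.293 for the others, and 8.09% against 60.9% had a ratio under 0.4. The letters TATAAA searched on the coding strand 45 to 16 bases before the start, occurred in 0.999% of windows of genes present, in 4.59% of the others and in 3.001% of all. By level the share was 0.788% at 1 to 10 FPKM, 0.983% at 10 to 100 FPKM and 3.704% of 351 genes at 100 to 1000 FPKM. Above 1000 FPKM it was 0 of 17, which allows a share of up to 17.6%. Protein-coding genes at that level numbered 35, so the windows cover only part of them, and the list shares likewise cover only genes with a window. Among the present genes of the secreted-factor lists, 29.03% of 62 windows were poor in CpG and 11.3% held TATAAA, while among those of the metabolic lists it was 9.04% and 2.26% of 177. The 100 bases before the start of 4 genes, picked after their values were seen, show the range, with CG, which reads alike on both strands, and, where the search found it, TATAAA in capitals.
Eef1a1: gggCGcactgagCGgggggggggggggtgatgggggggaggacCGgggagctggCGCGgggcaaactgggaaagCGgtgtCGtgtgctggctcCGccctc
Wnt7a: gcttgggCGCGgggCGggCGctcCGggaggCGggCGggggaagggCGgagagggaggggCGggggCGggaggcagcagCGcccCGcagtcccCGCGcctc
Areg: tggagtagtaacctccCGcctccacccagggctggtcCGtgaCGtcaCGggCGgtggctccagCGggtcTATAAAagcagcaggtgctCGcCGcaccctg
S100a4: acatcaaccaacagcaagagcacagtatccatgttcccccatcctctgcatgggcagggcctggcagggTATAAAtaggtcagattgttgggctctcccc
The stretch of Eef1a1 (chr9:78481725-78481824, minus strand) holds 8 CpG and that of Wnt7a (chr6:91411354-91411453, minus strand), which encodes a secreted WNT ligand, 14. The stretch of Areg (chr5:91139499-91139598, plus strand), the gene of the growth factor amphiregulin, holds 8 CpG and TATAAA. S100a4 (chr3:90603670-90603769, plus strand), which encodes a small calcium-binding protein, has TATAAA and 0 CpG in the stretch and stood at 521 ± 67.96 FPKM (SD, n = 3), so a window poor in CpG was found at a high level too. A match of these letters is a description of the sequence and not a measured site.

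In the 4T1 libraries Krt18 and Krt8, keratins of the luminal layer, were the highest keratins by mean. The basal keratin Krt14 was present too, at a mean of 22.9 FPKM against 22.4 FPKM for Krt19. The oestrogen and progesterone receptor genes Esr1 and Pgr were under 1 FPKM in every library. Of the epithelial adhesion and identity markers, 20 of 22 were present, with a median of 14.3 FPKM against 7.47 FPKM over all genes present. Krt18 was at 574, 587 and 631 FPKM and its partner Krt8 at 648, 657 and 454 FPKM, which form the filaments of simple epithelia. Krt7 was at 108, 113 and 93.3 FPKM and Krt19 at 23.6, 23.7 and 19.8 FPKM. Cdh1, encoding E-cadherin of the adherens junction, was at 63.2, 75.5 and 119 FPKM, with replicate 3 above the others. Epcam, an epithelial adhesion molecule, was at 42.2, 38.2 and 36.04 FPKM and Cldn4, a tight junction protein, at 43.01, 45.9 and 49.3 FPKM. Those not present were Ovol2 (0.7, 1 and 0.87 FPKM) and Ehf, at no more than 0.01 FPKM. Epithelial markers were thus present in cells labelled 4T1.

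**Figure D3:**
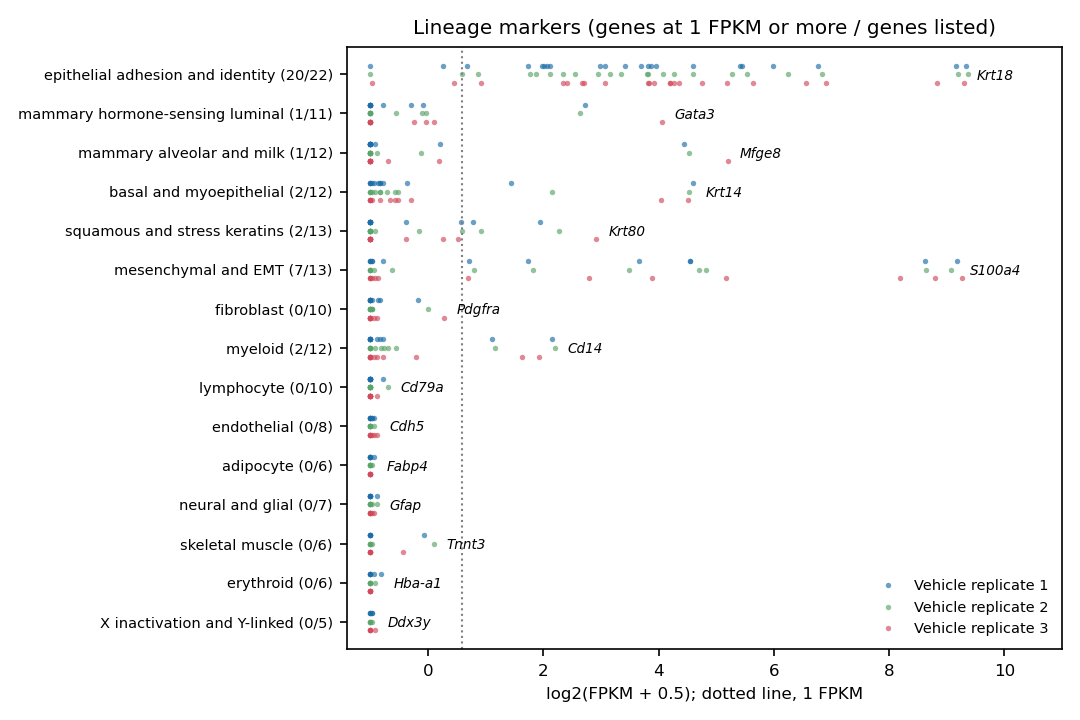
Level of each lineage marker, as log2(FPKM + 0.5), in the 3 vehicle libraries (colours), with the number present of the number listed and the highest marker named for each list. Epithelial markers reach 597 FPKM (Krt18) and mesenchymal ones 521 FPKM (S100a4), whereas the lymphocyte, endothelial, adipocyte, neural and erythroid lists stay left of the dotted line at 1 FPKM.

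Among hormone-sensing luminal markers only Gata3, a transcription factor of luminal cells, was present, 1 of 11, at 6.1, 5.74 and 16.1 FPKM, and 3 of the 11 reached 1 TPM on rescaling to TPM. Esr1, the oestrogen receptor α, was at 0.31, 0.43 and 0.48 FPKM, which rested on 98.6 fragments per library. By mean level Esr1 was among those that reached 1 TPM, so its absence depends on the scale of the limit. Pgr, the progesterone receptor, was at 0 in all 3 libraries, where 3 fragments would give 0.0213 FPKM. Erbb2, the receptor tyrosine kinase HER2, was at 4.76, 6.36 and 11.5 FPKM. Replicates 1 and 2 were thus under the median of all genes present, 7.47 FPKM, and replicate 3 above it. Foxa1, which opens chromatin for the oestrogen receptor, was at 0.08, 0.18 and 0.58 FPKM. Of the milk and alveolar markers 1 of 12 was present, the secreted milk fat globule protein Mfge8 at 21.2, 22.4 and 36.2 FPKM, and 9 were at 0 in all libraries, among them Csn2, Wap, Lalba and Elf5.

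Of the basal and myoepithelial markers 2 of 12 were present. Krt14, a keratin of basal cells, stood at 23.7, 22.6 and 22.3 FPKM, with less spread than most genes, while its usual partner Krt5 was at 0 in every library. Trp63, the transcription factor of basal cells, was at no more than 0.01 FPKM, and Acta2, a smooth muscle actin, at 0.05, 0.17 and 0.17 FPKM. Itgb4, the integrin chain of hemidesmosomes, was at 2.21, 3.93 and 15.9 FPKM, above 1 FPKM in each library but over a wide range. Of the squamous and stress keratins 2 of 13 were present, Krt80 at 3.35, 4.34 and 7.06 FPKM, and Krt6a and Krt6b were at 0.

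Of the mesenchymal list 7 of 13 genes were present. Vim, encoding the intermediate filament vimentin, was at 394, 397 and 614 FPKM, on the scale of Krt8 and Krt18. Fn1, encoding fibronectin, was at 22.9, 27.9 and 292 FPKM, so replicate 3 held more than 10 times the level of the others. Sparc, a matricellular protein, was at 22.7, 25.4 and 35.5 FPKM. Twist1 was the highest of the transcription factors of epithelial-mesenchymal transition at 12.2, 10.7 and 14.3 FPKM, before Snai1 at 2.81, 3.03 and 6.41 FPKM and Zeb2 at 1.13, 1.24 and 1.12 FPKM. Zeb1, Snai2, Twist2 and Prrx1 stayed under 0.16 FPKM in every library, and Cdh2, the N-cadherin gene, reached 0.01 FPKM. E-cadherin and vimentin transcripts were thus both present and N-cadherin was not, and whether one cell carries both cannot be read from bulk RNA.

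Markers of other cell types were at or near 0. The fibroblast list had 0 of 10 present, with a summed level of 0.51, 0.53 and 0.77 FPKM, nearly all from Pdgfra. Lymphocyte, endothelial, adipocyte, neural and erythroid lists had no gene present, with sums of at most 0.12 FPKM in any library. Skeletal muscle markers summed to 0.45, 0.58 and 0.24 FPKM, nearly all from Tnnt3. Of the myeloid list 2 of 12 were present, the endotoxin co-receptor Cd14 at 3.96, 4.09 and 3.29 FPKM and the lysosomal protein Cd68 at 1.66, 1.74 and 2.61 FPKM. The defining leukocyte marker Ptprc and the macrophage marker Adgre1 were at 0 in all libraries, where 3 fragments of Ptprc would give 0.00993 FPKM. In such bulk samples a few cells of a type and little RNA per cell cannot be told apart.

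The colony-stimulating and IL-6 family list had 9 of 15 (8 without replicate 3) genes present. Csf1, the macrophage colony-stimulating factor, was at 21.99, 23.6 and 41.3 FPKM and led its family in every library. Csf3, the granulocyte colony-stimulating factor, was at 13.7, 15.4 and 12.1 FPKM, with replicate 3 lowest, and Csf2, which acts on granulocytes and macrophages, at 0.48, 0.15 and 0.13 FPKM. Lif, which signals through the shared receptor chain gp130, was at 10.2, 11.4 and 10.02 FPKM, followed by its relative Clcf1 at 8.08, 7.88 and 9.22 FPKM and by Il34, another ligand of the Csf1 receptor, at 7.82, 7.27 and 5.22 FPKM. Il6 itself was at 0 in every library, where 3 fragments would give 0.0749 FPKM, and Il11 was at 0.77, 0.9 and 1.42 FPKM and under 1 FPKM without replicate 3.

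The highest listed interleukin was Il24, of the IL-10 family, at 52.6, 57.5 and 62.4 FPKM. Il23a, the specific subunit of IL-23, was at 12.9, 13.7 and 11.97 FPKM, but Il12b, the subunit it pairs with, was at 0. Tslp, an epithelial cytokine that acts on dendritic cells, was at 13.7, 10.4 and 9.06 FPKM and Il18, of the IL-1 family, at 4.37, 3 and 2.19 FPKM, both highest in replicate 1. Tnfsf9, the ligand of 4-1BB, was at 4.56, 4.98 and 5.92 FPKM. Tnf was at 0 in all libraries, and so were 16 of the 27 genes of its list.

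No CC chemokine was present (0 of 18), the highest being Ccl5 at 0.29, 0.57 and 0.78 FPKM, a ligand that draws T cells and monocytes. Of the other chemokines 4 of 17 were present. Cxcl16, made as a membrane-bound protein, was at 13.3, 13.9 and 11.7 FPKM and Cx3cl1, also membrane-bound, at 5.14, 5.58 and 11.9 FPKM. The ligands of the neutrophil receptor CXCR2 were low. Cxcl1 was at 2.43, 3.01 and 1.92 FPKM and Cxcl5 at 1.86, 2.44 and 1.7 FPKM. Cxcl1 was the higher in each library, though the ranges over the libraries overlapped. Cxcl2 was at no more than 0.11 FPKM.

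Among growth factors, 3 of 11 EGF family ligands were present. Hbegf, which is cleaved from the membrane to activate EGF receptors, was at 32.9, 34.9 and 27.8 FPKM. Areg, or amphiregulin, was at 22.2, 23 and 22.4 FPKM, a coefficient of variation (SD over mean) of 1.804%, and Tgfa at 7.83, 7.99 and 11.2 FPKM. Of the VEGF and PDGF ligands 7 of 9 (6 without replicate 3) were present, with Vegfb (13.5, 12.1 and 28.3 FPKM) above Vegfa, the main angiogenic factor (4.01, 4.14 and 3.83 FPKM). No FGF ligand was present (0 of 18). Of 17 WNT ligands 3 were present and 2 without replicate 3, Wnt7a at 26.3, 32.01 and 36.9 FPKM and Wnt7b at 11.5, 15.96 and 28.5 FPKM. Both are close relatives, and Wnt10a (0.45, 0.61 and 1.98 FPKM) passed only through replicate 3.

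The TGF-β superfamily gave 7 of 21 genes. Bmp1, a protease that trims procollagen despite its name, was at 12.6, 15.5 and 24.3 FPKM. Tgfb3 exceeded Tgfb1 in replicates 1 and 2 and not in replicate 3, at 8.48, 9.03 and 12.4 against 3.66, 3.91 and 14.9 FPKM, so the leading TGF-β ligand depends on the library. Inhba, a chain of activin A, was at 3.18, 2.86 and 2.85 FPKM. Of the IGF system 2 of 9 were present, both binding proteins: Igfbp4 at 165, 185 and 353 FPKM and Igfbp7 at 14.3, 18.2 and 36.5 FPKM. The ligands Igf1 and Igf2 were at 0.

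Of the secreted proteases 13 of 23 were present, and of protease inhibitors 10 of 12. The cathepsins Ctsl and Ctsz, mostly lysosomal, were highest at 269, 277 and 205 and at 128, 139 and 102 FPKM. Mmp3, or stromelysin, led the matrix metalloproteinases at 53.4, 53.9 and 38.3 FPKM, before the membrane-bound Mmp14 at 14.2, 14.9 and 31.7 FPKM. Mmp9 was at 2.02, 2.33 and 5.55 FPKM and Mmp2 at no more than 0.03 FPKM, both gelatinases. Plau, the urokinase that activates plasminogen, was at 45.5, 48.7 and 51.3 FPKM. The metalloproteinase inhibitors Timp2 and Timp1 were at 134, 142 and 178 and at 53.7, 56.2 and 55.4 FPKM, above every listed Mmp in each library, and Cst3, the cathepsin inhibitor cystatin C, was at 140.2, 142 and 116 FPKM.

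Of the matrix genes 19 of 24 (15 without replicate 3) were present, and 12 of those present were 2-fold above both others in replicate 3, against 8.06% of all genes present. Spp1, or osteopontin, was the highest by mean, at 245, 219 and 173 FPKM, and lowest in replicate 3. Ccn1, a matricellular protein, was at 89.2, 94.8 and 178 FPKM. Col4a1 of the basement membrane was at 10.2, 19.1 and 85.7 FPKM, and the basement membrane proteoglycan Hspg2 at 0.88, 0.76 and 33.3 FPKM, so it was not present without replicate 3. Col1a1, Col1a2 and Col3a1, the main collagens of stroma, were at no more than 0.05 FPKM. The median exonic length of the matrix genes present was 7464 bases against 4163 over all genes present, and the part of length in the replicate 3 values was not tested.

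Further secreted mediators included Mif, a macrophage-acting cytokine, at 252, 243 and 339.9 FPKM and Lgals3, or galectin-3, at 223, 209 and 148 FPKM. Ptgs2, which encodes cyclooxygenase-2 of prostaglandin synthesis, was at 32.4, 31.7 and 52.7 FPKM, while Ptges, the inducible prostaglandin E synthase, was at 0.45, 0.4 and 0.26 FPKM. Grn, the progranulin gene, was at 13.4, 15.02 and 41.7 FPKM, and Pthlh, a hormone-related protein that acts on bone, at 2.88, 3.14 and 4.49 FPKM. Lcn2 and Hgf were under 1 FPKM in the mean.

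**Figure D4:**
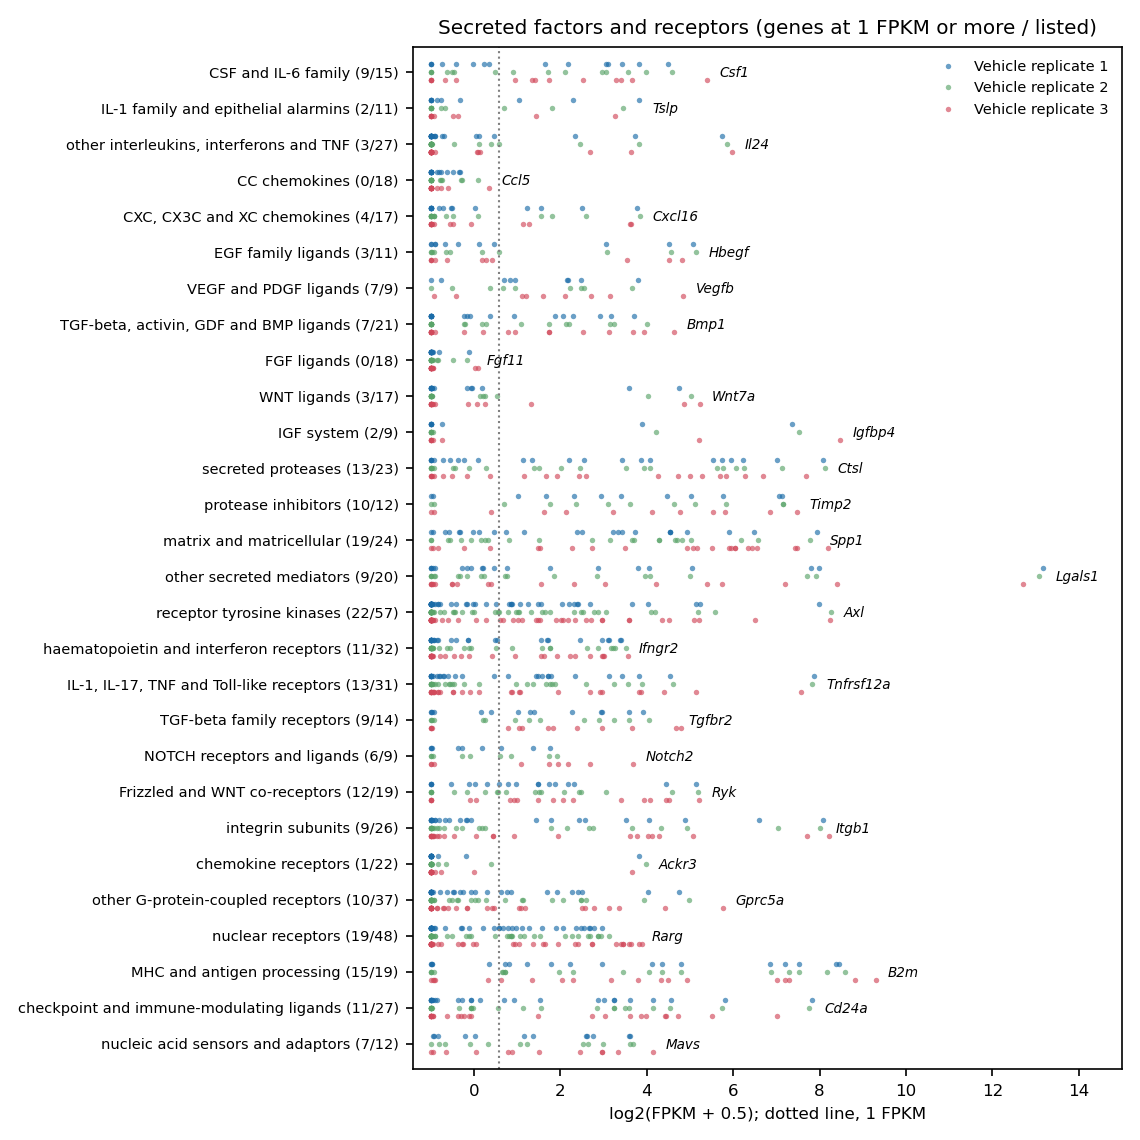
Level of each listed secreted factor (upper 15 lists) and receptor or immune gene (lower 13 lists), as log2(FPKM + 0.5), in the 3 vehicle libraries (colours), with the number present of the number listed and the highest gene named. CC chemokines and FGF ligands lie left of the dotted line at 1 FPKM in the mean, Lgals1 reaches 8183 FPKM, and replicate 3 is shifted right for most matrix genes.

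Levels within the receptor and immune lists overlapped those within the metabolic lists. The median of the genes present ran from 1.64 FPKM (NOTCH) to 15.5 FPKM (MHC) over 13 receptor and immune lists, and from 7.45 FPKM (gluconeogenesis) to 456 FPKM (mitochondrially encoded) over 14 metabolic lists. Of the receptor tyrosine kinases 22 of 57 (19 without replicate 3) were present. Axl, the receptor for Gas6, was at 254, 306 and 301 FPKM and held 98.4 ± 0.317% of the level of its 3-member family. Epha2, an ephrin receptor, was at 37.2, 47.6 and 90.9 FPKM and Ryk, a WNT-binding receptor without kinase activity, at 34.9, 35.7 and 36.4 FPKM. Ephb4 was at 12.2, 17.8 and 33.5 FPKM and Met, the receptor of Hgf, at 15.9, 16.6 and 19.9 FPKM with Hgf itself at no more than 0.01 FPKM. Among ERBB receptors Erbb2 stood above Erbb3 (1.3, 1.53 and 2.19 FPKM), Egfr (0.08, 0.12 and 0.28 FPKM) and Erbb4 (0 in all libraries). Hbegf, Areg and Tgfa, which bind the EGF receptor, were thus among the genes present and Egfr was not.

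Of the haematopoietin and interferon receptors 11 of 32 (10 without replicate 3) were present. The interferon γ receptor chains Ifngr1 and Ifngr2 were at 8.24, 8.77 and 11.4 and at 10.1, 10.99 and 7.39 FPKM, and the type I interferon receptor chain Ifnar1 at 9.86, 9.15 and 5.99 FPKM. Il6st, the shared chain gp130, was at 7.36, 8.49 and 7.59 FPKM, while Lifr, the chain that binds Lif, was at no more than 0.02 FPKM. Csf1r was at 0.04, 0.03 and 0.04 FPKM and Csf3r at 0, so the receptors of Csf1 and Csf3 were not among the genes present. Of the IL-1, IL-17, TNF and Toll-like receptors 13 of 31 were present, led by Tnfrsf12a, the receptor of TWEAK, at 234, 227 and 189.6 FPKM. Next came Ltbr, the lymphotoxin β receptor, at 22.8, 23.8 and 34.5 FPKM and Tnfrsf1a, the main TNF receptor, at 13.7, 14.2 and 20.6 FPKM.

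Integrins, with 9 of 26 present, were led by mean by Itgb1 at 269, 256 and 208 FPKM, the β chain shared by many matrix receptors. Its laminin-binding partner Itga3 was at 96.1, 131 and 295 FPKM and exceeded Itgb1 in replicate 3. Itga6 was at 29.2, 30.1 and 32.97 FPKM and Itgav at 10.9, 12.1 and 16.9 FPKM. A single chemokine receptor was present (1 of 22), the scavenger Ackr3 at 13.8, 15.4 and 12.2 FPKM, and Cxcr4 and Cxcr2 were at 0. Among other G-protein-coupled receptors 10 of 37 were present, with the orphan Gprc5a at 26.3, 31.3 and 53.5 FPKM and the thrombin receptor F2r at 15.9, 14.8 and 20.99 FPKM. NOTCH receptors and ligands numbered 6 of 9 (3 without replicate 3). Notch2 was at 2.1, 2.82 and 12.3 FPKM and Notch1 at 0.32, 0.32 and 4.02 FPKM.

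Of the Frizzled receptors and WNT co-receptors 12 of 19 (10 without replicate 3) were present, with Fzd6 at 21.4, 23.5 and 21.3 FPKM the highest Frizzled and Lrp5, a co-receptor, at 3.99, 5.09 and 16.3 FPKM. For the TGF-β family 9 of 14 (8 without replicate 3) receptors were present, among them Tgfbr2, the ligand-binding chain, at 14.6, 16.02 and 25.2 FPKM and Tgfbr1, its signalling partner, at 7.34, 7 and 4.69 FPKM. Replicate 3 was the highest library for Tgfbr2 and the lowest for Tgfbr1. Of the nuclear receptors 19 of 48 (18 without replicate 3) were present. Rarg, a retinoic acid receptor, had the highest mean at 6.42, 7.24 and 13.8 FPKM, but Nr1h2, an oxysterol receptor, exceeded it in replicates 1 and 2 at 7.26, 8.2 and 9.31 FPKM. Nr3c1, the glucocorticoid receptor, was at 5.85, 5.7 and 4.59 FPKM.

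Class I antigen presentation genes were present and class II genes were not. B2m, the light chain of class I molecules, was at 333, 289.6 and 629 FPKM and the heavy chain H2-D1 at 146, 157 and 146 FPKM, above H2-K1 at 27.02, 27.3 and 30.1 FPKM, with the reservation that class I genes resemble each other. Tap1 and Tap2, which carry peptides into the endoplasmic reticulum, were at 0.78, 1.16 and 2.03 and at 4.2, 4.44 and 8.48 FPKM. Without replicate 3 Tap1 was under 1 FPKM. Psmb8, an immunoproteasome subunit, was at 17.04, 16.03 and 13.3 FPKM. H2-Aa, H2-Ab1 and H2-Eb1 of class II and their regulator Ciita had means of at most 0.020 FPKM. Of the genes of surface or soluble immune modulation 11 of 27 (12 without replicate 3) were present. Cd24a, a ligand of Siglec receptors, was at 225, 217 and 129 FPKM, Nt5e, which makes adenosine, at 22.9, 22.9 and 20.8 FPKM and Cd47, a signal against phagocytosis, at 17.3, 17.2 and 21.3 FPKM. Cd274, which encodes PD-L1, was at 0.45, 0.49 and 0.31 FPKM, on 26.6 fragments per library, and Pdcd1lg2, which encodes PD-L2, was at 0. The nucleic acid sensing genes Cgas and Sting1 were at 5.62, 5.27 and 5.03 and at 5.51, 7.47 and 7.3 FPKM.

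In glycolysis and lactate handling 21 of 33 (22 without replicate 3) listed genes were present. Pkm, pyruvate kinase, was at 662, 702 and 690.4 FPKM and Ldha, the lactate dehydrogenase A chain, at 750.2, 750.0 and 544 FPKM. Ldha held 99.4 ± 0.0377% of its family, with Ldhb at 4.48, 4.13 and 2.84 FPKM. Slc2a1, the glucose transporter GLUT1, was at 14.5, 16.8 and 21.3 FPKM and the only one of its list above 2 FPKM. Hk1 and Hk2, the hexokinases, were at 8.7, 10.8 and 21.9 and at 9.41, 11.4 and 19.3 FPKM, so their order turned in replicate 3 and the leading hexokinase without it was Hk2. Slc16a1, the lactate transporter MCT1, was at 98.3, 105 and 67.2 FPKM, while Slc16a3, or MCT4, was at no more than 0.02 FPKM. Eno3, known as the muscle form of enolase, was at 235, 242 and 174 FPKM beside Eno1 at 339, 358 and 354 FPKM.

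**Figure D5:**
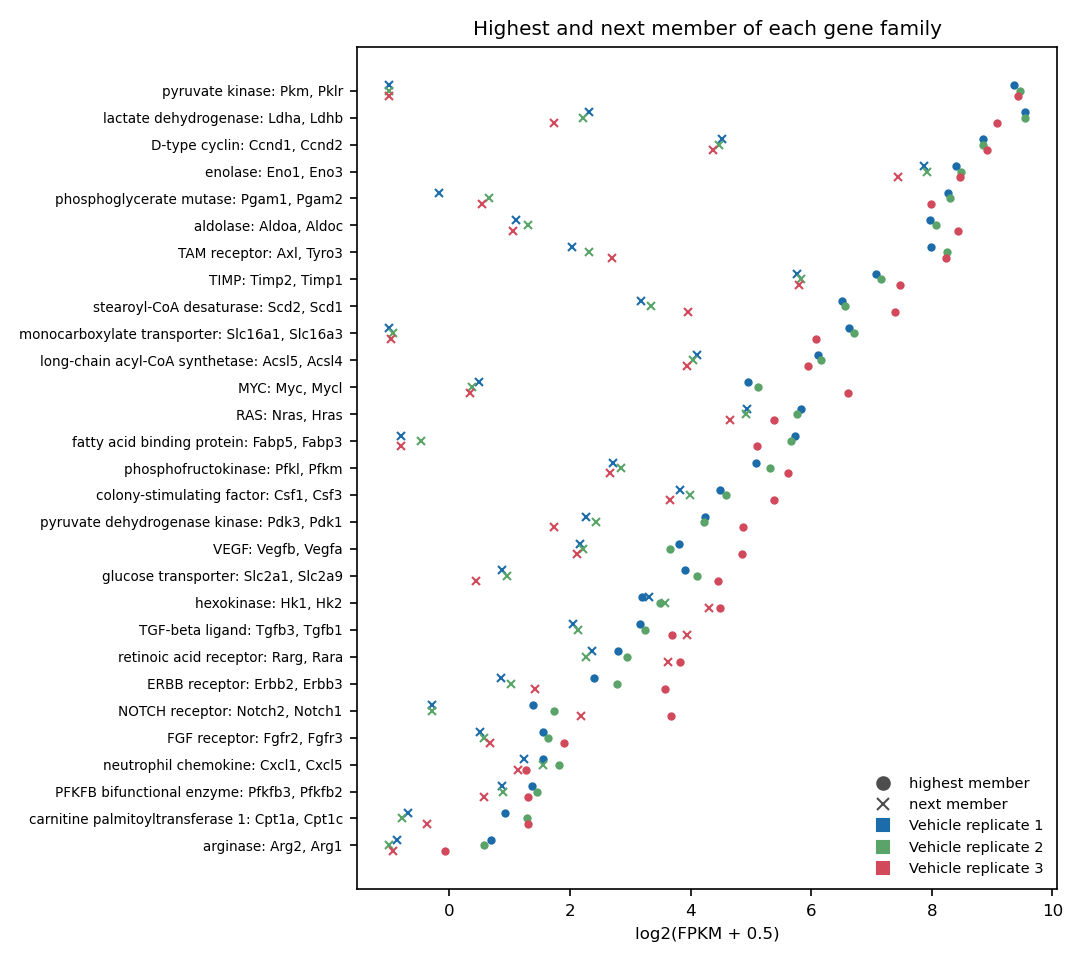
Level of the highest member (circles) and the next member (crosses) of 29 gene families, as log2(FPKM + 0.5), in the 3 vehicle libraries (colours), ordered by the highest member's mean. In 27 families the same member led in all 3 libraries; the exceptions are the hexokinases and the TGF-β ligands, where circles and crosses change order.

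All 8 listed pentose phosphate genes were present, among them G6pdx, the entry enzyme, at 39.97, 43.2 and 46.8 FPKM. Of pyruvate entry and the TCA cycle 28 of 30 genes were present, with Mdh2, a malate dehydrogenase, at 112, 118 and 139.9 FPKM and Cs, citrate synthase, at 67.4, 74.9 and 92.7 FPKM. Pdk3 was the leading pyruvate dehydrogenase kinase at 18.5, 18.3 and 28.6 FPKM, before Pdk1 at 4.3, 4.89 and 2.82 FPKM, and Pdk4 was at 0. Of glutamine and glutamate genes 14 of 16 were present. Slc1a5, a glutamine importer, was at 28.9, 36.9 and 54.3 FPKM and Asns, asparagine synthetase, at 118, 114 and 91.4 FPKM. Slc7a11, the cystine importer, was at 0.1, 0.07 and 0.07 FPKM and the only gene of its list under 0.1 FPKM in the mean.

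In the serine and one-carbon list 15 of 16 genes were present, with Phgdh, the first enzyme of serine synthesis, at 338, 333 and 268 FPKM and Psat1, the next, at 128, 128 and 79.97 FPKM. All 22 listed genes of nucleotide synthesis were present, with a median of 51.9 FPKM. Impdh2, which commits purines to guanine nucleotides, was at 286, 295 and 300.3 FPKM and Rrm2, a subunit of ribonucleotide reductase, at 129, 138 and 155 FPKM. 4T1 is known as a line selected in 6-thioguanine, and Hprt, the salvage enzyme that activates that drug, was at 120.4, 116 and 78.6 FPKM. In arginine and polyamine metabolism 11 of 18 (12 without replicate 3) were present, led by Odc1, ornithine decarboxylase, at 363, 376 and 307 FPKM. Arg1, which splits arginine in suppressive myeloid cells, was at 0.05, 0 and 0.02 FPKM and Nos2 at no more than 0.03 FPKM.

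All 22 listed genes of sterol synthesis and uptake were present, with a median of 13.6 FPKM. In fatty acid synthesis 13 of 16 were present. Fasn, fatty acid synthase, was at 4.42, 6.73 and 98.99 FPKM, so its level differed by over 10-fold between replicate 3 and the others. Acly, which supplies cytosolic acetyl-CoA, was steadier at 72.8, 83.7 and 75.9 FPKM, and Scd2, a desaturase, at 90.8, 93.9 and 167 FPKM exceeded Scd1 at 8.6, 9.6 and 14.97 FPKM in every library. For uptake and oxidation 19 of 28 were present, with Acsl5, which activates fatty acids, at 68.7, 71.02 and 61.4 FPKM and Cpt1a, which admits them to mitochondria, at 1.39, 1.95 and 1.97 FPKM.

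The antioxidant and glutathione list had 26 of 30 (25 without replicate 3) genes present. Fth1, the ferritin heavy chain, was at 667, 657 and 836 FPKM and Prdx1, a peroxidase, at 456, 438 and 225 FPKM. Txn1, thioredoxin, was at 295, 269 and 203 FPKM and Gpx4, which reduces lipid peroxides, at 206, 204 and 153 FPKM. Replicate 3 was the lowest library for Prdx1, Txn1 and Gpx4 and the highest for Fth1.

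All 22 listed proliferation genes were present, with a median of 55.4 FPKM. Pcna, the replication clamp, was at 187, 179 and 126 FPKM, Mcm5, a helicase subunit, at 152, 160.5 and 122 FPKM and Cdk1, the mitotic kinase, at 117, 114 and 54.6 FPKM. In contrast to these, Mki67, at 4.85, 4.75 and 23.6 FPKM, and Foxm1, at 17.1, 19.05 and 44.2 FPKM, were highest in replicate 3. Of the 22 genes, replicate 3 was 2-fold above both others for 2 and 2-fold below both for 1. Ccnd1, which drives entry into the cycle, was at 463, 463 and 481 FPKM and held 93.9 ± 0.124% of the D-type cyclin level. Myc, a growth-promoting transcription factor, was at 30.5, 34.2 and 97.6 FPKM, with replicate 3 far above the others. Akt1, a kinase of growth factor signalling, was at 193, 201 and 174 FPKM. Trp53 was at 6.8, 6.88 and 9.34 FPKM and its target Cdkn1a, the inhibitor p21, at 1.67, 1.54 and 1.71 FPKM. Of 20 listed p53 targets 14 were present, with a median of 10.01 FPKM. Not present were Pmaip1 and Eda2r, at 0 in all libraries, and Trp53inp1, Fas, Sesn2 and Bbc3, with means from 0.077 to 0.533 FPKM. Whether p53 drives any of these genes here was not tested.

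The inhibitor genes Cdkn2a and Cdkn2b, which lie side by side on chromosome 4, were at 0.05, 0 and 0.05 FPKM and, for Cdkn2b, at 0 in all libraries. On one side of them Mtap, a methionine salvage enzyme, was at 174, 168 and 239 FPKM, and Klhl9, beyond it, was at 12.5, 12.4 and 8.24 FPKM. In GRCm39 Mtap spans positions 89055359 to 89099318 and Cdkn2a 89192708 to 89212890. These 4 genes were set together after their values were seen.

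Spread between the 3 libraries was larger than counting fragments alone would give. The median coefficient of variation was 19.1%, where counting alone would give a median of 4.28%, and it was 5.73% without replicate 3. It was under 10% for 2251 genes (22.2%) and over 50% in 1026 (10.1%). Of the genes at 50 FPKM or more the steadiest was Hnrnpk, an RNA-binding protein, at 129, 129 and 129 FPKM. Eif3c, a subunit of an initiation factor, at 201, 202 and 200.3 FPKM, Gars, the glycyl-tRNA synthetase, at 116, 116 and 117 FPKM, and Cox5b, a cytochrome c oxidase subunit, at 61.3, 61.7 and 60.8 FPKM were also among the 10 steadiest. Rbm17, Dctpp1, Ccdc124, Marcksl1, 2810025M15Rik and Gm15710 complete that set. All 10 varied less than counting alone would give, Hnrnpk by 0.0999% against 0.824% and Marcksl1 by 0.838% against 2.16%. Their order, and a place among the 10, therefore do not show that these genes are steadier than others.

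Replicate 3 held most of the genes named as farthest from both other libraries. At a mean of 5 FPKM or more the largest distances above were those of Hspg2 and of Lama5, a laminin chain, at 1.17, 1.27 and 29.9 FPKM, followed by the cytoskeletal linker Plec at 0.89, 1.39 and 27.8 FPKM. Lars2, the mitochondrial leucyl-tRNA synthetase, was at 8.11, 8.28 and 126 FPKM, and Polr2a, the largest subunit of RNA polymerase II, at 4.36, 5.53 and 68.03 FPKM. Tnrc18, Plxna1 and Agrn, with 0.71 to 2.59 FPKM in the other libraries, reached 19.1 to 35.9 FPKM in replicate 3, and Fasn and a gene without a symbol complete the 10 farthest. The 9 with a symbol had exonic lengths of 7067 to 18113 bases. In the other direction Eif4a1, the translation helicase, was at 727, 722 and 329.7 FPKM and Cth, a cysteine-forming enzyme, at 17.6, 15.8 and 6.07 FPKM. The small nucleolar RNA Snord72 was at 18.3, 13.5 and 3.32 FPKM, on only 16.7 fragments per library. Cnbp, a nucleic acid-binding protein, was at 356, 336 and 156 FPKM, Morf4l2 at 155, 145 and 66.99 FPKM and Alyref, an mRNA export adaptor, at 89.3, 77.8 and 35.7 FPKM. The pseudogene Gm28438 was lowest in replicate 1, at 10.8, 37.6 and 59.6 FPKM. Another pseudogene, Gm13192, was lowest in replicate 2, at 8.72, 2.91 and 13.97 FPKM, on 32.3 fragments per library.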

How the data were processed

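RNA-seq was analysed for 3 Vehicle libraries of 4T1 cells, and the 3 KIRA6 libraries were not used here. Per the labels' protocols, poly(A) RNA was made into strand-specific libraries with dUTP. Per the submitters' processing notes, the tools were cutadapt 1.9.1, HISAT2 2.2.1, HTSeq 0.6.1 and DESeq2 1.34.0 with the genome GRCm39. For the parameters and strandedness of these steps the sources used here give nothing. Deposited by the authors were FPKM per gene with 2 decimals, exonic length and coordinates, per the file headers.

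FPKM multiplied by exonic length had equal sums over libraries, and the depth was recovered from values that are whole multiples of 1 fragment: 1064, 1116 and 920 values were checked and 100% came out whole within 0.1. A floor of 3 fragments was used for genes at 0, which covers counting error only. Means, SDs and log2(FPKM + 0.5) differences were computed in Python 3.11.15 with pandas 2.3.3, numpy 2.4.6 and matplotlib 3.10.9, and the code was tested on simulated data. With 1 group no test was made. Gene types and GC content came from a GENCODE M21 annotation that matched 52073 gene identifiers (91.9%), without its coordinates.

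The gene members and lists were chosen with earlier results of these data known. Genes were named by this rule: Esr1, Pgr, Erbb2, Trp53 and the leading member of each family. To these the rule adds the 20 highest protein-coding genes, up to 5 highest members per list and a cell type's defining markers at 0. By spread it takes up to 10 genes per library farthest from both others (mean of at least 5 FPKM) in each direction, and the 10 steadiest (at least 50 FPKM). Others, mainly list genes near 0 and partners of named genes, were chosen after their values were seen. The list symbols H2-L, Rigi and G6pc1 found no row, and 3 others were matched through older symbols. Alternatives were thresholds of 0.5 and 2 FPKM, 1 FPKM in every library, TPM and median-ratio scaling, protein-coding genes only, no filter, other pseudocounts and leaving out each library. Some genes are not reported here.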

Additional observations from a re-analysis of the deposited data

How the results depend on the processing

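The number of genes present was 10133 and lay between 8682 (2 FPKM) and 11904 (1 TPM) over the alternatives of threshold and scaling, all within 1.5 times. Single lists moved more: 11 of 61 changed by over 1.5 times at 1 TPM, 8 at 0.5 FPKM, 4 at 2 FPKM and 3 when 1 FPKM was required in every library. At 1 TPM the hormone-sensing luminal list had 3 genes in place of 1 and FGF ligands and skeletal muscle 1 in place of 0. At 1 TPM and at 0.5 FPKM alike, interleukins and TNF had 6 in place of 3, EGF ligands 5 in place of 3, TGF-β superfamily ligands 11 in place of 7, WNT ligands 6 in place of 3, milk markers and chemokine receptors 2 in place of 1, and CC chemokines and fibroblast markers 1 in place of 0. At 2 FPKM VEGF and PDGF ligands had 4 in place of 7, NOTCH genes 2 in place of 6, and squamous keratins and glucose transporters 1 in place of 2. With 1 FPKM in every library NOTCH genes had 3, squamous keratins 1 and glucose transporters 1. Median-ratio scaling moved no list that far, and leaving out a library moved only NOTCH genes, to 3 without Vehicle replicate 3. Leaving out each library in turn gave 9959 to 10161 genes, 520 to 543 present list genes, 10.5% to 10.8% of fragments and 17.0% to 17.5% of FPKM in the 10 highest genes, and the same first gene in 28 to 29 families. The median coefficient of variation then ran from 5.73% to 23.7%, with 5.73% the value without Vehicle replicate 3, and was 32.0% with no filter on low values. The FPKM share of the 10 highest genes was 12.7% over protein-coding genes of at least 500 bases. No paired analysis was possible because all values come from 1 group and from no test. Depth limits the lowest genes most: values near 1 FPKM rest on few fragments in short genes, and values of genes with near-identical copies stay uncertain at any depth.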
